A study of Rattus norvegicus with 28 samples.

Results

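The genes described here encode methyltransferases that act on RNA, DNA and arginine, with relatives that act on other protein residues. They were taken by symbol alone: every gene of the expression table whose name began with Mettl, Prmt, Trmt, Nsun, Dnmt or Ftsj and a number, plus Carm1 and Trdmt1. This gave 60 of 30178 genes. They were measured in NRK-49F, a rat kidney fibroblast line, as 8 RNA-seq libraries in 4 groups of 2. The TGFb+MetR group received TGF-β1 with methionine restriction, the TGFb+siHoxc8 group received TGF-β1 with a small interfering RNA named for Hoxc8, a homeobox transcription factor, the TGFb group received TGF-β1 alone, and the control group is labelled only as control. The labels give the TGF-β1 dose as 5 ng per uL and mark the libraries with it 48 h. The control titles give no time. All cells were grown in 10% serum and starved for 24 h in 0.2% serum before treatment. The restriction medium held 30 uM methionine, against 200 uM in its control medium, and the labels do not say which medium the TGFb+siHoxc8, TGFb and control libraries had. No RNA library of a control small interfering RNA was analysed here, so the effect of transfection and that of Hoxc8 knockdown cannot be told apart. The labels do not say whether replicates came from separate cultures, so a p-value here reflects the spread of the libraries, which may be technical, and no more.

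S-adenosylmethionine, made from methionine and ATP, donates the methyl group in nearly all of these reactions, and each transfer leaves S-adenosylhomocysteine, which inhibits many of the enzymes. Methyl groups on transfer RNA shape its folding, stability and decoding, N6-methyladenosine (m6A) in messenger RNA steers splicing and decay, cytosine methylation of DNA is copied at replication, and arginine methylation marks histones, ribosomal proteins and RNA-binding proteins. In kidney fibroblasts TGF-β1 drives the change to matrix-producing myofibroblasts, the cell model used here.

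The values are FPKM, fragments scaled to gene length and library size, so levels can be set side by side between genes. The libraries held 15118113 to 20146870 reads, recovered from the steps of the FPKM values. Differences were tested with limma on log2(FPKM + 1) over the 12315 genes that reached 1 FPKM in at least 2 libraries, and a gene was called raised or lowered at a Benjamini-Hochberg adjusted p below 0.05. Changes below are log2 fold changes on that scale with their standard errors, and they understate the changes of low genes. Hoxc8, the target of the knockdown, was listed at 0.417 and 0.614 FPKM in TGFb+MetR libraries, 0.463 and 0.0771 FPKM in TGFb+siHoxc8 libraries, 4.32 and 5.01 FPKM in TGFb libraries and 1.12 and 1.34 FPKM in control libraries, so it was low under restriction as well as under knockdown. Of the fibroblast markers, 7 of 8 were in the table and summed to 5913 to 12720 FPKM, with Thy1 listed at 0. Epcam, an epithelial marker, was listed at 0 in all 8 libraries, endothelial markers summed to at most 0.0547 FPKM, and leukocyte markers to at most 2.68 FPKM. The epithelial list rested on the keratin Krt8 and summed to 646 to 685 FPKM in TGFb+siHoxc8 libraries, against 194 to 225 FPKM in TGFb libraries. Its part in the results below was not tested.

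Of the 60 genes, 48 passed the filter on low values and 12 did not. The genes Prmt8, Trmt9b, Dnmt3l and Mettl24 were listed at 0 in all 8 libraries. The other 8 below the filter (Prmt6, Mettl7b, Mettl11b, Mettl21c, Mettl21cl1, Nsun4, Nsun7 and Mettl15) reached at most 0.700 FPKM and 32 reads in a library. Among the 48 tested genes the median level over libraries lay between 0.850 and 133 FPKM. The top was Prmt1, the main enzyme for asymmetric dimethylarginine, followed by Trmt112, a small activating subunit shared by several methyltransferases of transfer RNA, ribosomal RNA and protein. At least 20 reads stood behind every value for 45 of the 48, the exceptions being Nsun3, Mettl5 and Mettl4. Of the tested genes, 3 passed the filter only through groups in which they were high: Mettl5 through control, Mettl4 through TGFb and control, and Dnmt3b through TGFb+MetR and TGFb+siHoxc8. The filter thus favoured a fall of Mettl5 relative to control and of Mettl4 under restriction, and both count among the lowered genes below.

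Methionine restriction on top of TGF-β1 raised 22 of the 48 tested genes and lowered 3 (Mettl26, Mettl4 and Dnmt1). Among all tested genes 34.8% were raised and 19% lowered in the same comparison. The median change was 0.41 log2 units for the 48 genes and 0.18 for all tested genes. Rescaling libraries by the median ratio of all genes moved the median gene by -0.18, which left 18 raised (37.5%) and 7 lowered (14.6%), against 25.5% and 26.6% of all tested genes on that scale. Without TGFb+MetR replicate 2, the higher of an uneven pair, 18 were raised and 2 lowered, and without TGFb replicate 1 the lowered count was 1. Under the knockdown, 15 of the 48 were raised and 1, Mettl26, was lowered relative to TGFb, where the whole table had 28.1% raised and 15.7% lowered. The medians were 0.30 for the 48 genes and 0.13 for all genes, and rescaling, which moved the median gene by -0.14, gave 11 raised (22.9%) and 8 lowered (16.7%), against 20.9% and 22.3% of all tested genes. Without TGFb replicate 1 or TGFb+siHoxc8 replicate 1 the raised count was 9, and the lowered count was 0 without any of the 4 libraries compared and 3 without either TGFb+MetR library. TGF-β1 alone raised 0 and lowered 13 of the 48 relative to control, against 10.3% raised and 28.6% lowered in the whole table, with medians of -0.23 and -0.19. At an unadjusted p under 0.05, limma still had 0 higher, limma-voom on the recovered reads also called 0, and rescaling, a shift of 0.20, left 1 raised (Ftsj3) and 8 lowered (16.7%), against 19.1% and 17% of all tested genes. Without control replicate 1 or 2 the lowered count was 7 or 6.

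The share of genes lowered by TGF-β1 among the 48, 27.1%, lay near that of the whole table, and so did the share raised by the knockdown, 31.2%. The share raised by restriction, 45.8%, stood above the background of 34.8%, and the share lowered, 6.25%, below its 19%. The share raised by TGF-β1, 0%, also lay below its 10.3%, and the share lowered by the knockdown, 2.08%, below its 15.7%. On the rescaled values these were 2.08% against 19.1% and 16.7% against 22.3%. Set directly against control, TGFb+MetR libraries had 18 of the 48 raised and 12 lowered, with 28% raised and 29.3% lowered in the whole table, and 6 lowered without control replicate 1 or 2. TGFb+siHoxc8 libraries set directly against TGFb+MetR libraries had 5 raised (Dnmt1, Carm1, Mettl1, Prmt1 and Mettl26) and 12 lowered, with 24.9% raised and 29.3% lowered in the whole table, and quantile normalization gave 8 raised and 12 lowered. The raised count was 3, 3, 3 and 2 without control replicate 1, control replicate 2, TGFb+siHoxc8 replicate 1 and TGFb+siHoxc8 replicate 2, and 9 without TGFb+MetR replicate 2, and the lowered count was 22 without TGFb+MetR replicate 1. These comparisons share libraries, and each comparison's values are given side by side below without a test of their overlap. The libraries behind the restriction calls were uneven: 41 of the 48 genes, and all 22 called raised, were higher in TGFb+MetR replicate 2 than in replicate 1, by a median of 0.29 log2 units for the 48 and 0.07 for all genes. The same median was 0.00 in the TGFb+siHoxc8 group, 0.07 in the TGFb group and 0.01 in the control group.

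**Figure D1:**
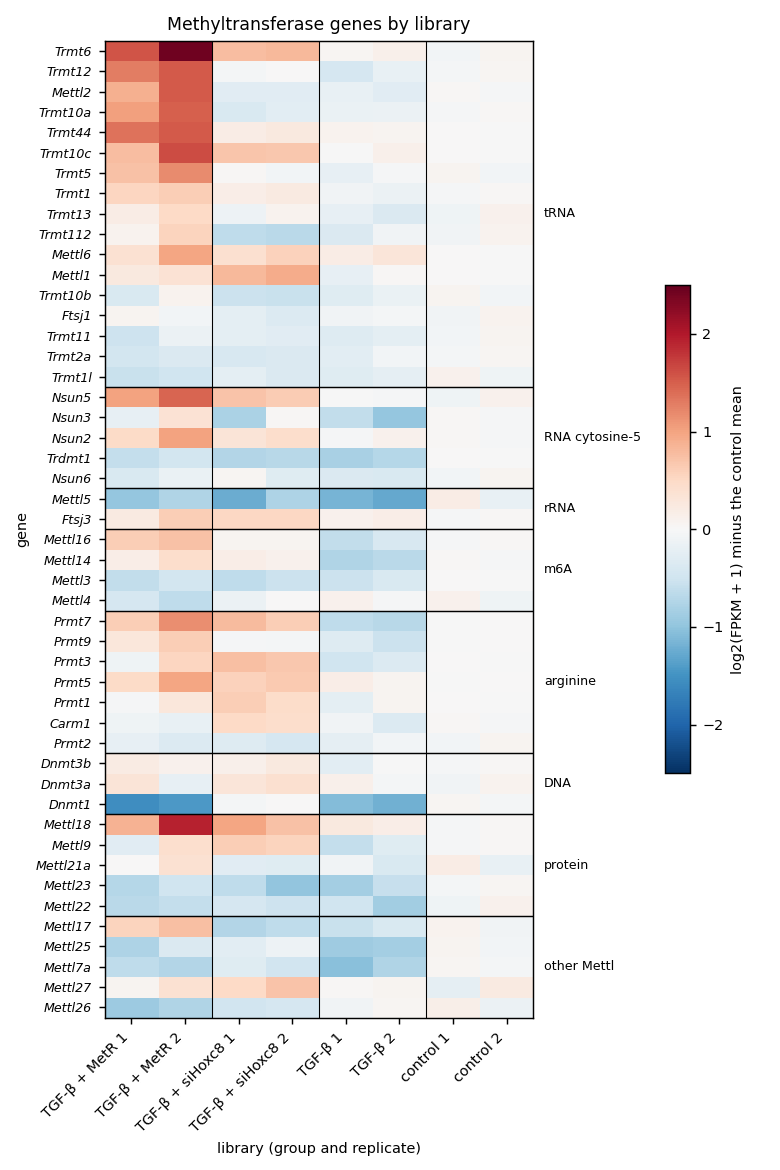
Level of each of the 48 tested genes (rows, grouped by substrate) in each of the 8 libraries (columns), as log2(FPKM + 1) minus the mean of the control libraries; red is above control and blue below. The upper block of transfer RNA genes is reddest in the TGFb+MetR columns, and Dnmt1 is blue in the TGFb+MetR and TGFb columns and near white in the TGFb+siHoxc8 columns.

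Enzymes of transfer RNA are the largest role, and restriction raised 11 of the 17 tested relative to TGFb, with a median change of 0.62. That is 64.7%, against 60% of the RNA cytosine-5 enzymes, 57.1% of the arginine enzymes and 34.8% of all tested genes. After rescaling 9 were raised (52.9%) and 2 lowered, against 25.5% and 26.6% of all tested genes. Relative to control, 9 of 17 were raised, where 28% of all tested genes were, and 2, Trmt1l and Trmt2a, were lowered, calls of which Trmt1l's was lost without control replicate 1 (adjusted p = 0.0743) and Trmt2a's without control replicate 2 (0.0943). TGF-β1 alone changed 0 of 17 by limma, where 10.3% of all tested genes were raised and 28.6% lowered. It also changed 0 at an unadjusted p under 0.05 and 0 by limma-voom. Quantile normalization raised 1, Trmt44, by 0.48 (limma, adjusted p = 0.0161). Nsun2, Nsun3 and Trdmt1, which also act on transfer RNA, were counted with the RNA cytosine-5 enzymes and not among these 17. Of the 5 tested in that role, TGF-β1 lowered 1, Trdmt1, and 3 were lower at an unadjusted p under 0.05. The knockdown raised 2, Mettl1 and Trmt1, relative to TGFb (11.8%, against 28.1% of all tested genes). After rescaling it raised 1 and lowered 4 (5.88% and 23.5%, against 20.9% and 22.3%). At an unadjusted p under 0.05 limma had 4 higher and 1 lower under knockdown, and limma-voom raised 3 and lowered 0. All comparisons share 1 estimate of the spread, so the uneven TGFb+MetR pair enters this one too. With library weights the knockdown also raised Trmt6 and Trmt10c and lowered Trmt112. The Trmt1 call under knockdown was lost after rescaling (0.174) and without any library except TGFb replicate 1 and the TGFb+MetR ones (0.0560 to 0.147).

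Trmt6 is the partner subunit of the enzyme that methylates an adenosine in the T loop of transfer RNA, a mark that in yeast keeps initiator methionine transfer RNA stable. It was measured at 34.0 and 62.9 FPKM in TGFb+MetR libraries, 19.3 and 19.7 FPKM in TGFb+siHoxc8 libraries, 11.3 and 12.0 FPKM in TGFb libraries and 10.2 and 11.5 FPKM in control libraries. Both TGFb+MetR libraries lay above all 6 others, although they differed from each other by more than any other pair. The change was 1.91 ± 0.24 relative to TGFb (limma, adjusted p = 0.000685) and 1.996 ± 0.24 relative to control (adjusted p = 0.000391). TGFb+siHoxc8 libraries also lay above the TGFb and control libraries, with a change of 0.70 ± 0.24 that just missed the threshold (adjusted p = 0.0522). It was called in 7 of 16 alternatives, among them limma-voom (0.0481), a mean of at least 5 FPKM (0.0403), library weights (0.00628) and leaving out either TGFb+MetR library (0.000834 and 0.000878). Its catalytic partner, Trmt61a, was not in the expression table under that symbol.

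Trmt12, which acts in the synthesis of wybutosine beside the anticodon of phenylalanine transfer RNA, was measured at 22.1 and 26.5 FPKM in TGFb+MetR libraries, 8.21 and 8.6 FPKM in TGFb+siHoxc8 libraries, 6.07 and 7.28 FPKM in TGFb libraries and 8.13 and 8.84 FPKM in control libraries. The TGFb+MetR libraries stood apart from all others and the TGFb libraries were the lowest. The change was 1.72 ± 0.13 relative to TGFb (limma, adjusted p = 0.000112) and 1.41 ± 0.13 relative to control (adjusted p = 0.000123). Trmt44, a uridine 2'-O-methyltransferase of serine transfer RNA known from yeast, was measured at 8.04 and 9.24 FPKM in TGFb+MetR libraries, 3.04 and 3.21 FPKM in TGFb+siHoxc8 libraries, 2.76 and 2.69 FPKM in TGFb libraries and 2.57 and 2.52 FPKM in control libraries. The 6 libraries without restriction fell within a narrow band and both TGFb+MetR libraries lay far above it. Its change was 1.37 ± 0.12 relative to TGFb (adjusted p = 0.00019) and 1.44 ± 0.12 relative to control (adjusted p = 8.15e-05).

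Trmt10a methylates a guanosine in the core of transfer RNA in the nucleus and cytosol. It was measured at 16.8 and 23.6 FPKM in TGFb+MetR libraries, 5.74 and 6.29 FPKM in TGFb+siHoxc8 libraries, 6.86 and 6.89 FPKM in TGFb libraries and 7.63 and 7.92 FPKM in control libraries. TGFb+MetR libraries lay above all others and TGFb+siHoxc8 libraries were the lowest, so that the knockdown libraries stood -1.58 ± 0.16 log2 units from the restriction libraries (limma, adjusted p = 0.000186). Restriction changed it by 1.41 ± 0.16 relative to TGFb (adjusted p = 0.000403). Mettl2, the 3-methylcytidine enzyme of threonine and arginine transfer RNAs, was measured at 18.3 and 29.6 FPKM in TGFb+MetR libraries, 7.6 and 7.63 FPKM in TGFb+siHoxc8 libraries, 8.17 and 7.57 FPKM in TGFb libraries and 9.73 and 9.26 FPKM in control libraries. It was high in both TGFb+MetR libraries and similar in the others, with a change of 1.45 ± 0.20 relative to TGFb (adjusted p = 0.000869) and a direct difference of -1.50 ± 0.20 between knockdown and restriction libraries (adjusted p = 0.00064). For Trmt12 that direct difference was -1.42 ± 0.13 (adjusted p = 0.000145).

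The transfer RNA enzymes did not all move together. Mettl1, which makes 7-methylguanosine in the variable loop of transfer RNA, was measured at 7.16 and 7.91 FPKM in TGFb+MetR libraries, 11.1 and 12.2 FPKM in TGFb+siHoxc8 libraries, 4.97 and 6.06 FPKM in TGFb libraries and 6.0 and 5.84 FPKM in control libraries. Here the TGFb+siHoxc8 libraries were the highest, above the TGFb+MetR libraries by 0.57 ± 0.13 (limma, adjusted p = 0.00716) and above TGFb by 0.96 ± 0.13 (adjusted p = 0.000962). Its rise under restriction, 0.39 ± 0.13 with an adjusted p of 0.0328, was lost after rescaling (0.193) and without TGFb replicate 1, TGFb+MetR replicate 2 or any TGFb+siHoxc8 or control library (0.0602 to 0.140), and the direct difference was lost without TGFb+siHoxc8 replicate 2 (0.0606). Wdr4, the partner that Mettl1 needs for activity, was measured at 19.4 and 30.8 FPKM in TGFb+MetR libraries, 7.34 and 8.39 FPKM in TGFb+siHoxc8 libraries, 7.35 and 8.31 FPKM in TGFb libraries and 7.49 and 6.13 FPKM in control libraries. Only its TGFb+MetR libraries stood apart, by 1.53 ± 0.21 from TGFb (adjusted p = 0.000899), in contrast to the order of Mettl1.

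Trmt112 was measured at 134 and 188 FPKM in TGFb+MetR libraries, 81.0 and 78.7 FPKM in TGFb+siHoxc8 libraries, 97.8 and 119 FPKM in TGFb libraries and 118 and 135 FPKM in control libraries. The TGFb+MetR libraries overlapped with control, the lower of them being at 134 FPKM, and the TGFb+siHoxc8 libraries were the lowest. Its change was 0.55 ± 0.17 relative to TGFb (limma, adjusted p = 0.0293), lost after rescaling (0.119) and without TGFb replicate 1 (0.154), TGFb+MetR replicate 2 (0.106) or either TGFb+siHoxc8 library (0.0505 each). Ftsj1, a 2'-O-methyltransferase of the anticodon loop, was measured at 12.9 and 11.6 FPKM in TGFb+MetR libraries, 10.2 and 9.49 FPKM in TGFb+siHoxc8 libraries, 11.5 and 11.8 FPKM in TGFb libraries and 11.4 and 13.1 FPKM in control libraries. Its TGFb+siHoxc8 libraries were the lowest and the rest overlapped. Its change under restriction was 0.07 ± 0.11, within the spread of the libraries (adjusted p = 0.639). The other transfer RNA genes raised by restriction were Trmt10c, Trmt5, Trmt1 and Trmt13, with changes of 1.14, 1.07, 0.69 and 0.62; the changes of Mettl6, Trmt10b, Trmt11, Trmt1l and Trmt2a lay between -0.26 and 0.44 and did not pass. The Trmt13 call was lost without TGFb replicate 2 or TGFb+MetR replicate 2 (0.0766 and 0.0564), and it is the smallest of the 4.

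**Figure D2:**
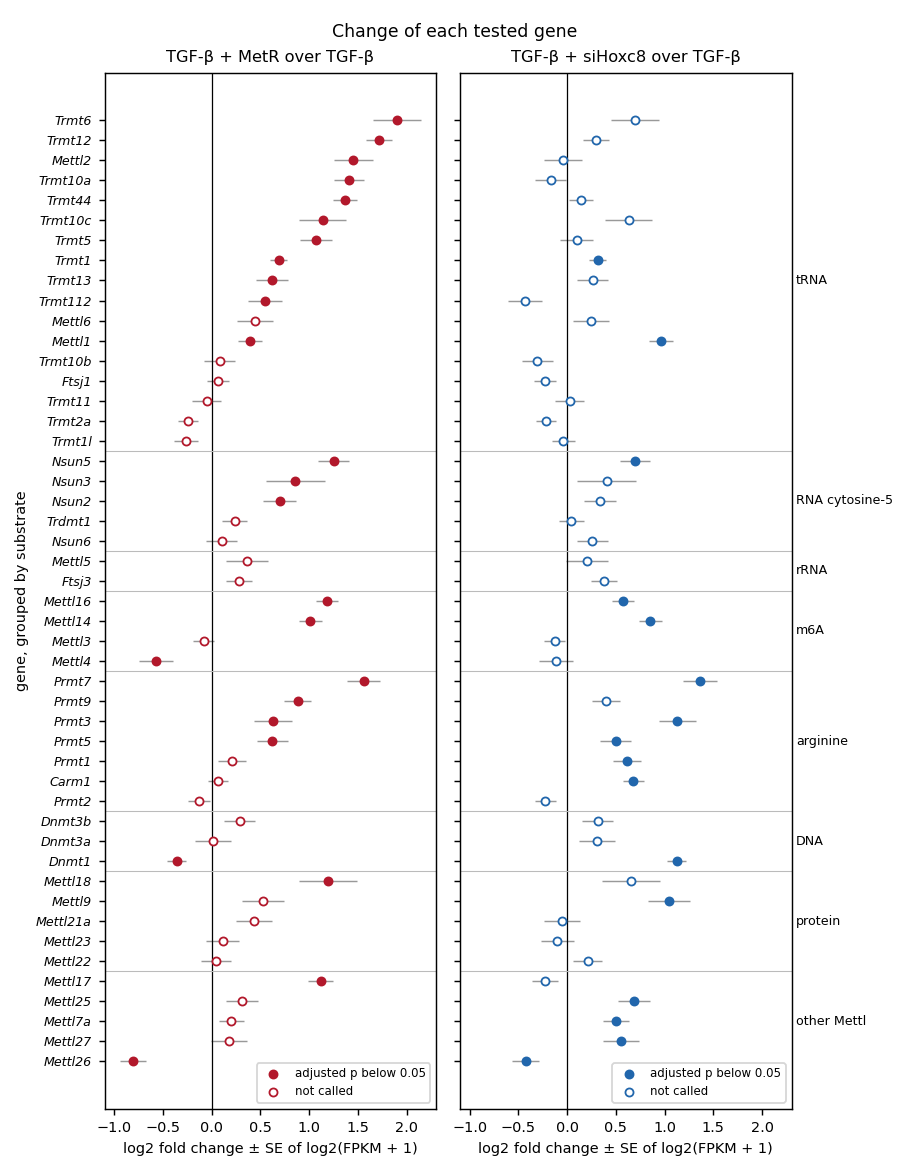
Change of each of the 48 tested genes (rows, grouped by substrate) in TGFb+MetR over TGFb (left) and TGFb+siHoxc8 over TGFb (right), as log2 fold change of log2(FPKM + 1) on the horizontal axis; points are estimates from 2 libraries a group, bars are standard errors, and filled points have an adjusted p below 0.05. Filled points of the transfer RNA block all lie right of 0 in the left panel, 11 of 17, while the right panel has 2.

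RefSeq promoters (GRCr8 build) were found for 50 of the 60 genes, and 4 are shown: those of the 3 genes raised by restriction whose window holds the letters CACGTG, the E-box core bound by basic helix-loop-helix factors, and that of Dnmt1, whose levels are described further on. Each window is 300 bases long, 250 before the annotated start and 50 from it, read 5′ to 3′ on the gene's strand, in lower case with the match in capitals. Trmt6 lies at chr3:140539460-140539759 on the minus strand, Trmt1 at chr19:40371723-40372022 on the minus strand, Mettl17 at chr15:27055661-27055960 on the plus strand and Dnmt1 at chr8:27762792-27763091 on the minus strand. The capitals mark CACGTG in Trmt6, Trmt1 and Mettl17, in Trmt6 also a Smad box CAGACA and an E2F motif TTTGGCGC, and in Dnmt1 they mark a match to the NRF1-like motif.
Trmt6: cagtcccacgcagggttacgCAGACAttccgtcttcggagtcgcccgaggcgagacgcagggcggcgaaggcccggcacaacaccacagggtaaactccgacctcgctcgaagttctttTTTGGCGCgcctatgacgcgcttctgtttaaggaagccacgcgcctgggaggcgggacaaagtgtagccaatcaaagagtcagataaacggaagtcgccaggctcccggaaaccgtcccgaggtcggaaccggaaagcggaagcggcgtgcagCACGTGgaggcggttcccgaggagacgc
Trmt1: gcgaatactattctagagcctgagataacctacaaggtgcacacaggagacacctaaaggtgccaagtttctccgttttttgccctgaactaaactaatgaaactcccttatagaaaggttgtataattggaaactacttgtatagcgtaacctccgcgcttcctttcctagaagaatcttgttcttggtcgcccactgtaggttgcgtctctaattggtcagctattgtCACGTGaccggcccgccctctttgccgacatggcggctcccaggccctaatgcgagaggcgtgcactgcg
Mettl17: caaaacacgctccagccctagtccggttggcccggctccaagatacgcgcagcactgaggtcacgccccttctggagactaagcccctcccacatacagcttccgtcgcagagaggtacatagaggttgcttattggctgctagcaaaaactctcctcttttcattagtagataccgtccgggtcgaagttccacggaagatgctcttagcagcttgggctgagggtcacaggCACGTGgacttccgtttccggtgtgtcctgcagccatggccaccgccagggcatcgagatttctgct
Dnmt1: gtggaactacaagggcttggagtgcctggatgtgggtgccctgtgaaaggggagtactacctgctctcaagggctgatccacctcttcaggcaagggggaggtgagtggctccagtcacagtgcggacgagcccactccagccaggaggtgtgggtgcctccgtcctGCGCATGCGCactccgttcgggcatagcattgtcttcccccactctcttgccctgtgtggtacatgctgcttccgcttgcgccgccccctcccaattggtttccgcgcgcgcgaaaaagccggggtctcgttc
CACGTG was found, on either strand, in 7 of the 50 promoters and in 6.65% of the 27457 promoters of the table. Of the 16 promoters of genes raised by restriction, 3 held it, and so did 3 of the 21 of tested genes that were neither raised nor lowered. The Smad boxes CAGACA and GTCTAGAC were in 6 and 0 of the 50, against 20.8% and 0.215% of all promoters. The ATF4 composite TGATGNAAT was in 0 of the 50 and 1.05% of all, and the E2F motifs TTTGGCGC and TTTCCCGC were in 2 and 0, against 0.521% and 1.03%. The NRF1-like motif was in 3 of the 50, those of Dnmt1, Mettl5 and Prmt2, and in 6.15% of all. The E-box, Smad palindrome and NRF1-like motif read alike on both strands, and a match describes letters only.

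Cytosine-5 methyltransferases of RNA had 3 of 5 tested members raised by restriction relative to TGFb, against 34.8% of all tested genes, with a median of 0.70, and 2 of 5 after rescaling, against 25.5%. Nsun5, which methylates a cytosine of large-subunit ribosomal RNA, was measured at 24.6 and 34.0 FPKM in TGFb+MetR libraries, 19.9 and 18.8 FPKM in TGFb+siHoxc8 libraries, 11.6 and 11.5 FPKM in TGFb libraries and 10.8 and 12.6 FPKM in control libraries. The libraries fell in steps, with TGFb+MetR highest, TGFb+siHoxc8 next and TGFb and control overlapping. The change relative to TGFb was 1.25 ± 0.16 under restriction (limma, adjusted p = 0.000606) and 0.70 ± 0.16 under knockdown (adjusted p = 0.00958), the second being lost without TGFb+siHoxc8 replicate 1 (0.0636). Nsun2, the broad cytosine enzyme of transfer RNAs, was measured at 29.6 and 42.8 FPKM in TGFb+MetR libraries, 26.6 and 28.6 FPKM in TGFb+siHoxc8 libraries, 20.5 and 22.8 FPKM in TGFb libraries and 21.4 and 20.5 FPKM in control libraries. Its TGFb+MetR libraries were the highest, by 0.70 ± 0.17 from TGFb (adjusted p = 0.00943), a call lost without TGFb replicate 1 (0.0584). The third was Nsun3, of mitochondrial transfer RNA, with as few as 3 reads in a library, whose change of 0.86 ± 0.30 (adjusted p = 0.0457) was lost after rescaling (0.0644) and without either TGFb library, TGFb+MetR replicate 2 or either control library (0.0694 to 0.210).

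Trdmt1, a Dnmt relative that methylates the anticodon loop of aspartate transfer RNA, had another order. It was measured at 2.41 and 2.77 FPKM in TGFb+MetR libraries, 2.09 and 2.18 FPKM in TGFb+siHoxc8 libraries, 1.96 and 2.14 FPKM in TGFb libraries and 4.2 and 4.13 FPKM in control libraries. Both control libraries lay above all 6 libraries with TGF-β1, and of those 6 the TGFb+MetR pair was the highest. TGF-β1 lowered it, with a change of -0.76 ± 0.13 (limma, adjusted p = 0.00345), a call lost under quantile normalization (0.0517), and under restriction its difference from TGFb was 0.23 ± 0.13 (adjusted p = 0.159).

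For ribosomal RNA, 2 of 3 members were tested. Mettl5, the m6A enzyme of small-subunit ribosomal RNA, which is stabilised by Trmt112, was measured at 0.734 and 1.0 FPKM in TGFb+MetR libraries, 0.428 and 0.967 FPKM in TGFb+siHoxc8 libraries, 0.513 and 0.395 FPKM in TGFb libraries and 2.84 and 1.98 FPKM in control libraries. It was highest in the control libraries and near or below 1 FPKM in all others, and its values rest on few reads. It was tested only because of its control libraries, so a fall relative to control was favoured by the filter. TGF-β1 lowered it, with a change of -1.22 ± 0.21 (limma, adjusted p = 0.00415), and it stayed below control under restriction, with a difference of -0.86 ± 0.21 (adjusted p = 0.0106), a call lost without control replicate 1 (0.0754). Ftsj3, a 2'-O-methyltransferase of ribosomal RNA precursors, was measured at 49.2 and 65.1 FPKM in TGFb+MetR libraries, 60.4 and 60.5 FPKM in TGFb+siHoxc8 libraries, 45.5 and 47.1 FPKM in TGFb libraries and 41.0 and 43.3 FPKM in control libraries. Its TGFb+MetR and TGFb+siHoxc8 libraries lay above both TGFb libraries. Neither difference from TGFb passed, at 0.28 ± 0.13 for restriction (limma, adjusted p = 0.106) and 0.38 ± 0.13 for knockdown (adjusted p = 0.0521). The rise under knockdown was called in 6 of 16 alternatives, among them limma-voom (0.0433), a mean of at least 5 FPKM (0.0462), library weights (0.00964) and leaving out either TGFb+MetR library (0.00291 and 0.00294), and that under restriction in 1, without TGFb+MetR replicate 1 (0.00217). Relative to control it rose under restriction by 0.42 ± 0.13 (adjusted p = 0.0284), a call lost without either control or either TGFb+siHoxc8 library (0.0537 to 0.139).

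Of the m6A enzymes of messenger and small nuclear RNA, TGF-β1 lowered 3 of 4 relative to control, where 28.6% of all tested genes were lowered, and after rescaling 1 of 4, against 17%. Restriction raised 2 (50%) and lowered 1 (25%) relative to TGFb, against 34.8% and 19% of all tested genes. After rescaling it raised 2 and lowered 2 (50% each), against 25.5% and 26.6%. Mettl3, the catalytic subunit of the m6A writer, was measured at 16.8 and 18.7 FPKM in TGFb+MetR libraries, 16.6 and 17.8 FPKM in TGFb+siHoxc8 libraries, 17.8 and 19.9 FPKM in TGFb libraries and 26.4 and 26.0 FPKM in control libraries. Control libraries lay above all libraries with TGF-β1, which overlapped. The fall under TGF-β1 was -0.46 ± 0.11 (limma, adjusted p = 0.0129). It was lost after rescaling (0.0963) and without TGFb replicate 1, control replicate 1 or control replicate 2 (0.0572, 0.0899 and 0.0772). Under restriction its difference from TGFb was -0.08 ± 0.11 (adjusted p = 0.531, 95% interval -0.33 to 0.16), and after rescaling this counted among the 7 lowered.

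Mettl14, the RNA-binding partner of Mettl3, was measured at 16.1 and 19.8 FPKM in TGFb+MetR libraries, 16.2 and 15.6 FPKM in TGFb+siHoxc8 libraries, 8.16 and 8.57 FPKM in TGFb libraries and 14.6 and 14.1 FPKM in control libraries. The TGFb libraries were the lowest by a wide margin, and the other groups lay close together. TGF-β1 lowered it, with a change of -0.71 ± 0.12 relative to control (limma, adjusted p = 0.00321), and relative to TGFb it was raised by 1.01 ± 0.12 under restriction (adjusted p = 0.000474) and by 0.85 ± 0.12 under knockdown (adjusted p = 0.00119). Knockdown and restriction libraries differed by -0.16 ± 0.12 (adjusted p = 0.295). The subunits of the writer had different orders across groups: Mettl3 lay below control in every library with TGF-β1, and Mettl14 was low in TGFb libraries alone.

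Mettl16 methylates U6 small nuclear RNA and, in human cells, hairpins of the MAT2A messenger RNA, which encodes the enzyme that makes S-adenosylmethionine. It was measured at 16.1 and 17.6 FPKM in TGFb+MetR libraries, 10.7 and 10.7 FPKM in TGFb+siHoxc8 libraries, 6.33 and 7.46 FPKM in TGFb libraries and 9.98 and 10.3 FPKM in control libraries. The TGFb libraries were the lowest, control and TGFb+siHoxc8 libraries lay close together, and TGFb+MetR libraries were the highest. Restriction raised it by 1.18 ± 0.11 relative to TGFb (limma, adjusted p = 0.000228) and by 0.68 ± 0.11 relative to control (adjusted p = 0.00168), and knockdown by 0.57 ± 0.11 relative to TGFb (adjusted p = 0.0055). The fall under TGF-β1, -0.50 ± 0.11 (adjusted p = 0.0117), was lost after rescaling (0.0666) and without control replicate 1 or 2 (0.0690 and 0.0831). Mat2a itself was measured at 293 and 402 FPKM in TGFb+MetR libraries, 70.8 and 73.4 FPKM in TGFb+siHoxc8 libraries, 69.8 and 74.6 FPKM in TGFb libraries and 66.6 and 63.2 FPKM in control libraries. Restriction raised it by 2.23 ± 0.15 relative to TGFb (adjusted p = 7.03e-05), and its TGFb+siHoxc8, TGFb and control libraries lay within 63.2 to 74.6 FPKM, so Mat2a stood apart under restriction alone whereas Mettl16 also rose with knockdown.

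Mettl4, an adenosine methyltransferase of U2 small nuclear RNA, was measured at 0.472 and 0.272 FPKM in TGFb+MetR libraries, 0.776 and 0.986 FPKM in TGFb+siHoxc8 libraries, 1.14 and 0.938 FPKM in TGFb libraries and 1.14 and 0.819 FPKM in control libraries, values near the filter's limit. It was tested only because of 1 TGFb and 1 control library above 1 FPKM, so a fall under restriction was favoured by the filter. Restriction lowered it, with a change of -0.57 ± 0.17 relative to TGFb (limma, adjusted p = 0.0246), a call lost with library weights (0.176) and without TGFb replicate 1, TGFb replicate 2 or TGFb+MetR replicate 2 (0.105, 0.0558 and 0.0816). Among 16 genes listed as m6A partners, erasers and readers, restriction raised 9 relative to TGFb (56.2%, against 34.8% of all tested genes) and the knockdown raised 4 (25%, against 28.1%). After rescaling restriction raised 8 and lowered 2, and the knockdown raised 3 and lowered 1. The largest were Ythdc1, a nuclear reader, at 1.14 ± 0.13 under restriction, and Igf2bp1, a stabilising reader, at 1.06 ± 0.10 under knockdown. Wtap, the scaffold of the writer, was measured at 30.8 and 38.3 FPKM in TGFb+MetR libraries, 23.5 and 27.9 FPKM in TGFb+siHoxc8 libraries, 20.9 and 23.5 FPKM in TGFb libraries and 34.9 and 32.3 FPKM in control libraries. Its TGFb and TGFb+siHoxc8 libraries were low and its TGFb+MetR and control libraries high, with changes of -0.58 ± 0.14 for TGF-β1 relative to control (adjusted p = 0.015) and 0.61 ± 0.14 for restriction relative to TGFb (adjusted p = 0.00801).

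**Figure D3:**
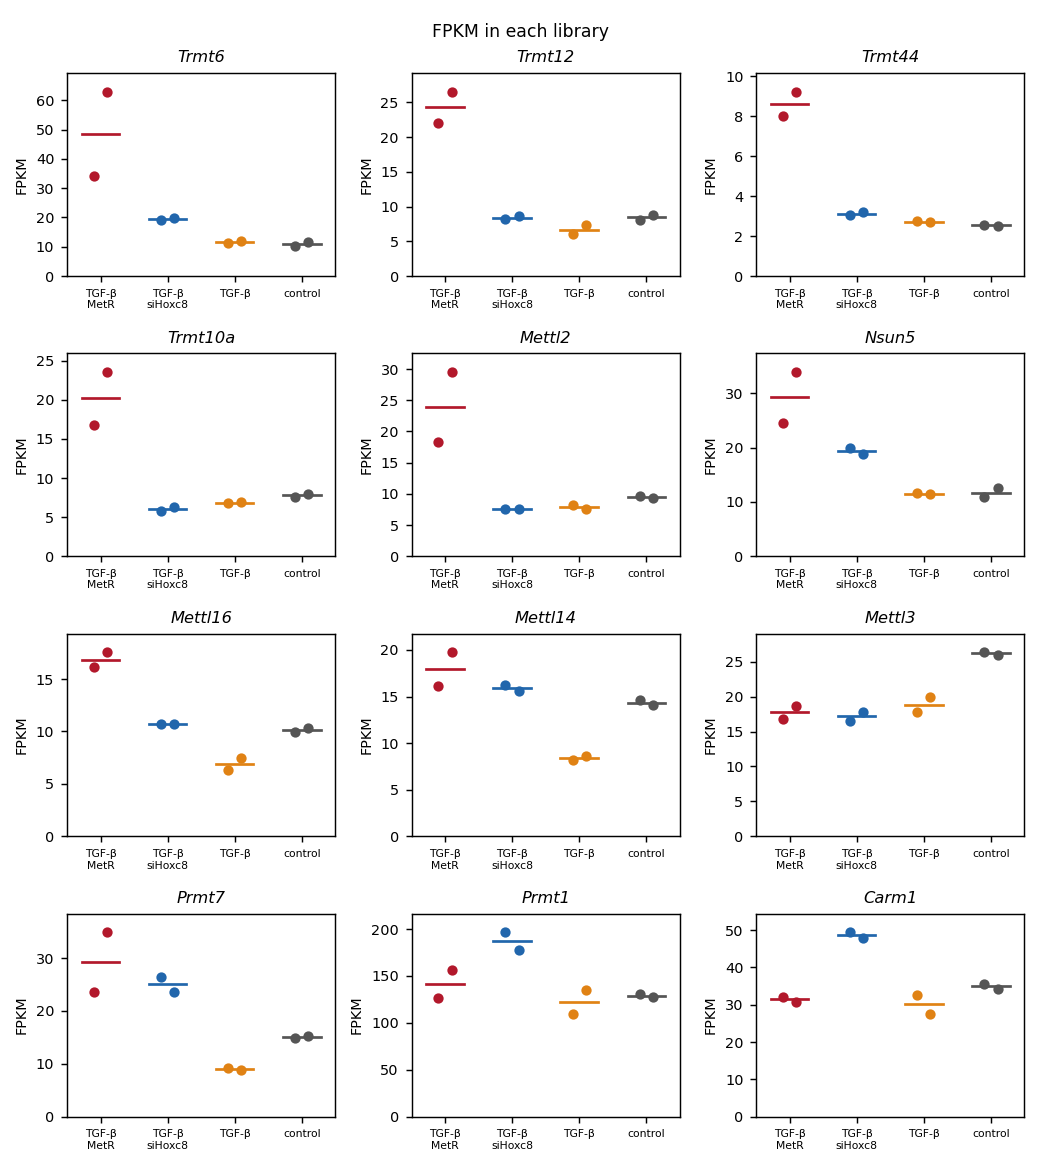
FPKM of 12 genes (1 panel each, vertical axis from 0) in TGFb+MetR, TGFb+siHoxc8, TGFb and control libraries; points are libraries and lines are group means of 2. Trmt6, Trmt12, Trmt44, Trmt10a and Mettl2 stand apart in TGFb+MetR libraries, Mettl14 and Prmt7 are lowest in TGFb libraries, and Prmt1 and Carm1 are highest in TGFb+siHoxc8 libraries.

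Among the arginine methyltransferases, counted here as the Prmt genes and Carm1, restriction raised 4 of 7 tested members relative to TGFb. That is 57.1%, against 34.8% of all tested genes. Knockdown raised 5 of 7, 71.4% against 28.1%. After rescaling the counts were 3 raised and 1 lowered for restriction (42.9% raised, against 25.5%) and 4 raised and 1 lowered for knockdown (57.1% raised, against 20.9%), the lowered gene being Prmt2. Prmt7, which makes monomethylarginine, was measured at 23.5 and 34.9 FPKM in TGFb+MetR libraries, 26.5 and 23.6 FPKM in TGFb+siHoxc8 libraries, 9.28 and 8.88 FPKM in TGFb libraries and 14.8 and 15.2 FPKM in control libraries. TGFb libraries were the lowest, control libraries next, and TGFb+MetR and TGFb+siHoxc8 libraries overlapped at the top. Prmt7 was raised relative to TGFb by 1.56 ± 0.17 under restriction (limma, adjusted p = 0.000389) and by 1.37 ± 0.17 under knockdown (adjusted p = 0.000804). The fall under TGF-β1, -0.66 ± 0.17 (adjusted p = 0.020), was lost after rescaling (0.0616), under quantile normalization (0.0582) and without any of the 4 TGFb and control libraries (0.0697 to 0.0989).

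Prmt3, a cytosolic enzyme that methylates a small-subunit ribosomal protein, was measured at 14.2 and 22.9 FPKM in TGFb+MetR libraries, 26.6 and 25.5 FPKM in TGFb+siHoxc8 libraries, 10.7 and 12.0 FPKM in TGFb libraries and 15.5 and 15.5 FPKM in control libraries. TGFb+siHoxc8 libraries were the highest and TGFb libraries the lowest, while the TGFb+MetR libraries lay on both sides of control. Knockdown raised it by 1.13 ± 0.19 relative to TGFb (limma, adjusted p = 0.0030). The rise under restriction, 0.63 ± 0.19 (adjusted p = 0.0275), was lost after rescaling (0.0823), under quantile normalization (0.122), without TGFb replicate 1 or 2 (0.128 and 0.0710) and when genes of any level were tested (0.0624).

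Prmt1 was measured at 126 and 157 FPKM in TGFb+MetR libraries, 197 and 177 FPKM in TGFb+siHoxc8 libraries, 109 and 135 FPKM in TGFb libraries and 130.2 and 127 FPKM in control libraries. TGFb+siHoxc8 libraries were above all others, and the TGFb+MetR, TGFb and control libraries overlapped. Knockdown changed it by 0.62 ± 0.14 relative to TGFb (limma, adjusted p = 0.011), a call lost without TGFb replicate 1 or TGFb+siHoxc8 replicate 1 (0.0599 and 0.0808), and by 0.41 ± 0.14 relative to restriction (adjusted p = 0.044), lost with library weights (0.0678) and without TGFb+MetR replicate 1 or any TGFb+siHoxc8 or control library (0.0786 to 0.211). Carm1, an asymmetric arginine methyltransferase of histone tails and a transcriptional coactivator, was measured at 32.2 and 30.8 FPKM in TGFb+MetR libraries, 49.5 and 47.8 FPKM in TGFb+siHoxc8 libraries, 32.7 and 27.5 FPKM in TGFb libraries and 35.5 and 34.4 FPKM in control libraries. Here too the TGFb+siHoxc8 libraries stood above the rest, by 0.68 ± 0.11 relative to TGFb (adjusted p = 0.00198) and 0.61 ± 0.11 relative to restriction (adjusted p = 0.00218). Under restriction Carm1 differed from TGFb by 0.07 ± 0.11 (95% interval -0.18 to 0.31).

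Prmt5, the main enzyme for symmetric dimethylarginine on spliceosomal proteins and histones, was measured at 34.7 and 49.8 FPKM in TGFb+MetR libraries, 36.9 and 39.4 FPKM in TGFb+siHoxc8 libraries, 27.7 and 25.7 FPKM in TGFb libraries and 24.2 and 24.9 FPKM in control libraries. TGFb+MetR and TGFb+siHoxc8 libraries lay above TGFb and control libraries. The rise relative to TGFb was 0.62 ± 0.16 under restriction (limma, adjusted p = 0.0131), lost without TGFb replicate 2 (0.0738), and 0.50 ± 0.16 under knockdown (adjusted p = 0.0373), lost after rescaling (0.0990) and without any TGFb+siHoxc8, TGFb or control library (0.0673 to 0.161). Wdr77, the usual partner of Prmt5, was listed at no more than 0.0454 FPKM in any library. That value is given as listed and is not read as absence of the transcript. A list of genes related to arginine methylation had 4 tested (Clns1a, Riok1, Coprs and Jmjd6), not all of them subunits of methyltransferases. Restriction raised 3 of the 4 relative to TGFb (75%, against 34.8% of all tested genes). After rescaling it raised 2 and lowered 1 (50% and 25%, against 25.5% and 26.6%). The largest change was that of Jmjd6, at 1.07 ± 0.19. Prmt9, which methylates a splicing factor, was also raised by restriction, at 0.88.

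DNA methyltransferases gave a separate pattern. Dnmt1, the maintenance enzyme that copies methylation to new strands after replication, was measured at 8.65 and 9.48 FPKM in TGFb+MetR libraries, 26.7 and 27.6 FPKM in TGFb+siHoxc8 libraries, 12.4 and 11.5 FPKM in TGFb libraries and 28.5 and 26.5 FPKM in control libraries. Control and TGFb+siHoxc8 libraries formed a high group and TGFb+MetR and TGFb libraries a low one, with no overlap. TGF-β1 lowered it, with a change of -1.14 ± 0.10 relative to control (limma, adjusted p = 0.000245), knockdown raised it by 1.12 ± 0.10 relative to TGFb (adjusted p = 0.000195), and knockdown and restriction libraries differed by 1.48 ± 0.10 (adjusted p = 3.96e-05). Restriction set it -1.50 ± 0.10 from control (adjusted p = 3.47e-05) and -0.36 ± 0.10 from TGFb (adjusted p = 0.0188), the last lost with library weights (0.0875) and without TGFb replicate 1 (0.0731).

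Dnmt1 is transcribed mainly in cycling cells, and markers of proliferation moved with it. All 10 proliferation markers were lowered by TGF-β1 relative to control, where 28.6% of all tested genes were lowered. All 10 were raised by knockdown relative to TGFb, against 28.1% of all tested genes. Restriction lowered 4 of them relative to TGFb (40%, against 19%), and 7 after rescaling (70%, against 26.6%). The counts for TGF-β1 and knockdown stayed at 10 on that scale. Mki67, a marker of cycling cells, was measured at 1.51 and 1.26 FPKM in TGFb+MetR libraries, 17.8 and 16.6 FPKM in TGFb+siHoxc8 libraries, 2.9 and 2.75 FPKM in TGFb libraries and 13.4 and 14.0 FPKM in control libraries. Uhrf1, which brings Dnmt1 to hemimethylated DNA, was measured at 5.96 and 6.89 FPKM in TGFb+MetR libraries, 30.1 and 30.3 FPKM in TGFb+siHoxc8 libraries, 7.28 and 6.88 FPKM in TGFb libraries and 18.1 and 17.9 FPKM in control libraries. Both have the high and low groups of Dnmt1, and the part of proliferation in the Dnmt1 result was not tested. In bulk RNA, fewer cells with a transcript and less of it per cell cannot be told apart.

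The de novo DNA methyltransferases were not called in any of the 5 comparisons over all 8 libraries. Dnmt3a was measured at 5.74 and 3.69 FPKM in TGFb+MetR libraries, 5.67 and 6.13 FPKM in TGFb+siHoxc8 libraries, 4.92 and 4.24 FPKM in TGFb libraries and 4.08 and 4.7 FPKM in control libraries. Its TGFb+MetR replicates lay far apart, 1 of them below all other libraries, and its change relative to TGFb was 0.02 ± 0.19 (limma, adjusted p = 0.951). Without TGFb+MetR replicate 1, knockdown and restriction libraries differed by 0.56 (adjusted p = 0.0170). Dnmt3b was measured at 1.11 and 0.956 FPKM in TGFb+MetR libraries, 0.984 and 1.15 FPKM in TGFb+siHoxc8 libraries, 0.525 and 0.816 FPKM in TGFb libraries and 0.796 and 0.856 FPKM in control libraries, values at the limit of the filter, with a change of 0.29 ± 0.16 relative to TGFb (adjusted p = 0.163). Among 9 tested partners of DNA methylation, knockdown raised 5 relative to TGFb (55.6%, against 28.1% of all tested genes). Restriction also raised 5 (55.6%, against 34.8%). After rescaling knockdown raised 4 and lowered 0 (44.4% raised, against 20.9%), and restriction raised 4 and lowered 1 (44.4% raised, against 25.5%). The largest rises under knockdown were Tdg, the glycosylase that removes oxidised methylcytosine, at 1.97 ± 0.10 and Uhrf1 at 1.95 ± 0.10.

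**Figure D4:**
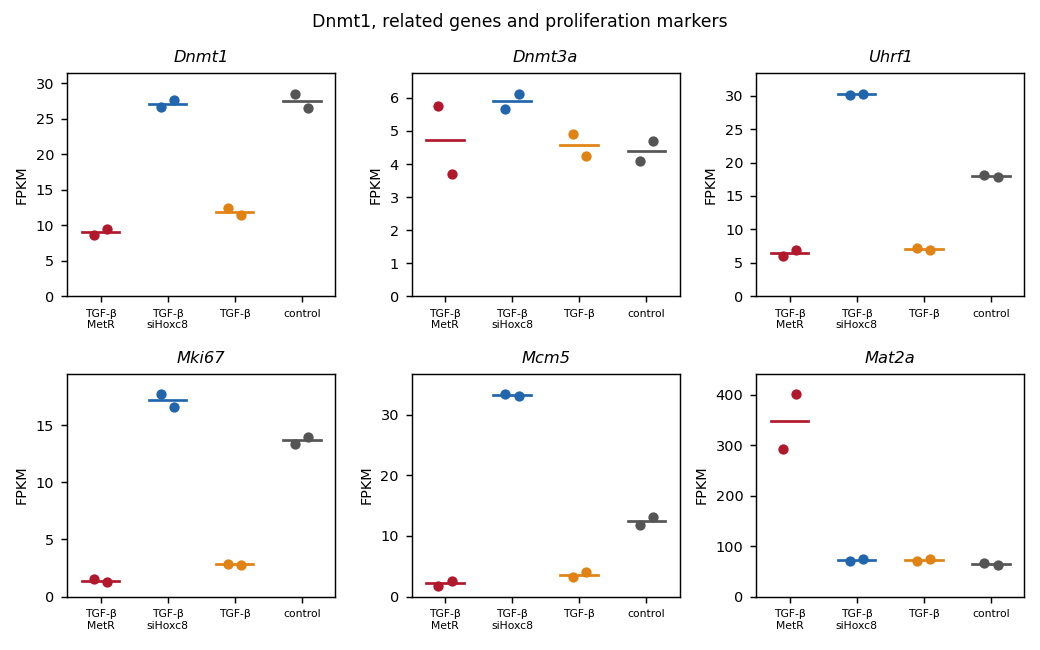
FPKM of Dnmt1, Dnmt3a, the Dnmt1 partner Uhrf1, the proliferation markers Mki67 and Mcm5 and the S-adenosylmethionine synthetase gene Mat2a (vertical axes from 0) in TGFb+MetR, TGFb+siHoxc8, TGFb and control libraries; points are libraries and lines are group means of 2. Dnmt1, Uhrf1, Mki67 and Mcm5 are low in TGFb+MetR and TGFb libraries and high in TGFb+siHoxc8 and control libraries, Dnmt3a overlaps between groups, and Mat2a is high in TGFb+MetR libraries only.

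Of the protein methyltransferases other than the Prmt genes and Carm1, restriction raised 1 of 5 tested members relative to TGFb, where 34.8% of all tested genes were raised. That member was Mettl18, which methylates a histidine of a large-subunit ribosomal protein and was measured at 8.75 and 19.4 FPKM in TGFb+MetR libraries, 9.55 and 7.92 FPKM in TGFb+siHoxc8 libraries, 5.34 and 5.0 FPKM in TGFb libraries and 4.23 and 4.46 FPKM in control libraries. TGFb+MetR replicate 2 was far above all other libraries and replicate 1 lay among the TGFb+siHoxc8 libraries, both groups being above TGFb and control. The change was 1.19 ± 0.30 relative to TGFb (limma, adjusted p = 0.0122), lost without TGFb replicate 1 or 2 (0.0537 and 0.0690), and 1.40 ± 0.30 relative to control (adjusted p = 0.00549). Mettl9, a histidine methyltransferase of many proteins, was measured at 48.5 and 79.6 FPKM in TGFb+MetR libraries, 91.4 and 87.7 FPKM in TGFb+siHoxc8 libraries, 38.5 and 47.8 FPKM in TGFb libraries and 58.3 and 60.0 FPKM in control libraries. TGFb+siHoxc8 libraries were the highest, and the TGFb+MetR libraries spanned control. Knockdown raised it by 1.04 ± 0.21 relative to TGFb (adjusted p = 0.00656), lost without TGFb replicate 1 (0.0512). Mettl22, a lysine methyltransferase, and Mettl23, an arginine methyltransferase of histones, were lowered by TGF-β1 relative to control, with changes of -0.68 ± 0.15 (adjusted p = 0.0111) and -0.71 ± 0.17 (adjusted p = 0.0138). Mettl22 had 5.81 and 6.24 FPKM in TGFb+MetR libraries, 7.11 and 6.65 FPKM in TGFb+siHoxc8 libraries, 6.73 and 5.0 FPKM in TGFb libraries and 9.14 and 10.7 FPKM in control libraries. Mettl23 had 4.61 and 5.51 FPKM in TGFb+MetR libraries, 4.9 and 3.6 FPKM in TGFb+siHoxc8 libraries, 4.1 and 5.13 FPKM in TGFb libraries and 7.9 and 8.42 FPKM in control libraries. Control libraries were the highest in both genes, and both calls were lost under quantile normalization (0.0856 and 0.136). The Mettl22 call was also lost without TGFb replicate 2 or control replicate 2 (0.0522 and 0.0876), and the Mettl23 call without TGFb replicate 1 or either control replicate (0.0661 to 0.0853).

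The remaining Mettl genes moved in different directions. Mettl17, a factor of the mitochondrial ribosome, was measured at 13.5 and 15.6 FPKM in TGFb+MetR libraries, 4.91 and 5.32 FPKM in TGFb+siHoxc8 libraries, 5.74 and 6.58 FPKM in TGFb libraries and 9.53 and 8.24 FPKM in control libraries. It was highest in TGFb+MetR libraries and lowest in TGFb+siHoxc8 libraries. Restriction raised it by 1.12 ± 0.13 relative to TGFb (limma, adjusted p = 0.000466), and knockdown and restriction libraries differed by -1.34 ± 0.13 (adjusted p = 0.000167). Mettl26 was measured at 5.01 and 5.74 FPKM in TGFb+MetR libraries, 7.13 and 7.46 FPKM in TGFb+siHoxc8 libraries, 9.61 and 10.7 FPKM in TGFb libraries and 11.5 and 9.2 FPKM in control libraries. TGFb+MetR libraries were the lowest and TGFb+siHoxc8 libraries next. Restriction lowered it, with a change of -0.81 ± 0.14 relative to TGFb (adjusted p = 0.00225) and of -0.83 ± 0.14 relative to control (adjusted p = 0.00165). The fall under knockdown, -0.43 ± 0.14 (adjusted p = 0.0396), was lost under limma-voom (0.0573), when genes of any level were tested (0.0722) and without any of the 4 TGFb+siHoxc8 and TGFb libraries (0.0706 to 0.173). The difference between knockdown and restriction libraries, 0.38 ± 0.14 (adjusted p = 0.0483), was kept in 5 of 16 alternatives. It was lost under limma-voom (0.0746), with no filter on low values (0.0805), with library weights (0.181) and without any library other than TGFb+MetR replicate 2 (0.0548 to 0.186).

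Mettl7a, a membrane-bound thiol methyltransferase, was measured at 11.0 and 10.2 FPKM in TGFb+MetR libraries, 14.1 and 12.3 FPKM in TGFb+siHoxc8 libraries, 8.09 and 10.1 FPKM in TGFb libraries and 18.3 and 17.0 FPKM in control libraries. Both control libraries lay above the rest. TGF-β1 lowered it, with a change of -0.89 ± 0.13 (limma, adjusted p = 0.00205), and under restriction it stayed below control, with a difference of -0.69 ± 0.13 (adjusted p = 0.00334). Mettl25 was measured at 2.33 and 3.42 FPKM in TGFb+MetR libraries, 3.75 and 4.24 FPKM in TGFb+siHoxc8 libraries, 2.06 and 2.15 FPKM in TGFb libraries and 4.95 and 4.46 FPKM in control libraries. Control libraries were the highest, TGFb+siHoxc8 libraries next and TGFb libraries the lowest. TGF-β1 lowered it, with a change of -0.88 ± 0.16 (adjusted p = 0.00534) and knockdown raised it relative to TGFb by 0.68 ± 0.16 (adjusted p = 0.0125), the second call lost without TGFb replicate 1 or TGFb+siHoxc8 replicate 2 (0.0573 and 0.0811).

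In RefSeq (GRCr8), 23 of the 48 tested genes overlap another gene, and the strand setting of the counting is not given in the sources used here, so shared reads cannot be told apart. Where a neighbour was tested, its change under restriction relative to TGFb was in some cases in the same direction, as for Tmem184c beside Prmt9 (1.40 ± 0.12), Pom121 beside Nsun5 (0.78 ± 0.14) and Nacc1 beside Trmt1 (0.72 ± 0.11). In others it was opposite, as for Mnat1 beside Trmt5 (-0.52 ± 0.14) and Rab40c beside Mettl26 (1.21 ± 0.12). Acox3, beside Trmt44, changed by 0.31 ± 0.14 and was not called. Trmt6, Trmt12, Trmt10a, Mettl2, Mettl14, Mettl16, Prmt7 and Dnmt1 have no overlapping gene in that annotation.

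For the supply of the methyl donor, 9 genes were tested. Restriction raised 5 (55.6%) and lowered 1 (11.1%) relative to TGFb, against 34.8% and 19% of all tested genes, with 5 raised and 3 lowered after rescaling. Knockdown raised 2 (22.2%) and lowered 1 (11.1%), against 28.1% and 15.7%, with 1 raised and 2 lowered after rescaling. The gene lowered by restriction was Ahcyl1, a relative of the hydrolase that clears S-adenosylhomocysteine, at -1.21 ± 0.09 (limma, adjusted p = 9.05e-05). A list for transfer RNA held 6 tested genes (Wdr4, Wdr6, Thada, Alkbh8, Alkbh1 and Alkbh3), not all of them subunits of methyltransferases. Of these, restriction raised 4 (66.7%) and knockdown raised 1 (16.7%) relative to TGFb. After rescaling restriction raised 4 and lowered 1, and the call under knockdown was lost. TGF-β1 alone raised 1 of the 9 supply genes (11.1%), Ahcyl2, by 1.32 ± 0.12 relative to control, and lowered 2 (22.2%). In that comparison 10.3% of all tested genes were raised and 28.6% lowered. After rescaling 1 supply gene was raised and 1 lowered. Of the 6 genes of the transfer RNA list TGF-β1 lowered 1 (16.7%), Thada, with a change of -0.95 ± 0.12.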

How the data were processed

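RNA from 8 NRK-49F libraries was analysed, in 4 groups of 2 taken from the sample titles; 20 other samples of the series were not analysed here. The authors deposited 1 table of FPKM values with gene symbols for all 8 libraries. Trim Galore, Bowtie2 2.3.5.1, deepTools, featureCounts and the build rn6 are listed without roles, per the submitters' processing notes; for the RNA reads, the aligner, annotation and strand setting were not given in the sources used here. All 13 genes with a mitochondrial prefix are listed at 0, so a 0 is only reported as listed. Whole reads were recovered for 100.0% of the 19435 genes above 0 (tolerance 0.02 reads), which gave 15118113 to 20146870 reads per library.

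The limma package 3.58.1 (R 4.3.3) was fitted to log2(FPKM + 1), with 1 coefficient per group over all 8 libraries, moderated variances with a trend, a filter of at least 1 FPKM in at least 2 libraries, and Benjamini-Hochberg adjustment over all 12315 tested genes within each of 5 comparisons. The procedure was tested on simulated data. Alternatives were a pseudocount of 0.1, no filter, a mean of at least 5 FPKM, median-ratio rescaling, quantile normalization, a replicate block, library weights, limma-voom on recovered reads and leaving out each library. The genes and the lists of partners, roles, markers and motifs were chosen with earlier results of these data known. Genes named in full were a fixed set of well-known enzymes and, per comparison, the 8 (the first 3 comparisons) or 4 (the others) largest called changes each way among those whose libraries did not overlap; a few others were named after their values were seen. Symbols were matched to RefSeq (GRCr8), 59 directly and 1 by synonym, and its coordinates are those of GRCr8, not rn6.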

Additional observations from a re-analysis of the deposited data

How the results depend on the processing

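In each of the 5 comparisons the counts of the 48 tested genes were recomputed under 16 alternatives, of which a mean of at least 5 FPKM covered 36 of the 48, and no gene that was called changed direction under any of them. TGFb against control had 0 raised and 13 lowered, with 1 raised and 8 lowered after median-ratio rescaling and 1 raised and 6 lowered after quantile normalization. TGFb+MetR against TGFb had 22 raised and 3 lowered, and the lowered count was 7 after median-ratio rescaling, 7 after quantile normalization and 1 with library weights. TGFb+siHoxc8 against TGFb had 15 raised and 1 lowered, and the lowered count was 0 with no filter on low values, 8 after rescaling, 7 after quantile normalization, 2 with library weights and 0 by limma-voom. TGFb+siHoxc8 against TGFb+MetR had 5 raised, and 8 after quantile normalization. Rescaling centres the median gene on 0, so fewer rises and more falls follow from its construction where that median was above 0. Over all genes, TGFb against control had 1269 raised and 3523 lowered, against 2349 and 2092 after rescaling and 2079 and 2102 after quantile normalization.

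Leaving out 1 library leaves a group with 1 sample, which is then assumed to vary like the other groups. The ranges were 0 to 0 raised and 6 to 16 lowered for TGFb against control, 16 to 27 raised and 1 to 3 lowered for TGFb+MetR against TGFb, 9 to 21 raised and 0 to 3 lowered for TGFb+siHoxc8 against TGFb, 15 to 23 raised and 6 to 13 lowered for TGFb+MetR against control, and 2 to 9 raised and 9 to 22 lowered for TGFb+siHoxc8 against TGFb+MetR. Over all genes, TGFb against control had 620 raised and 1700 lowered without control replicate 1 and 649 and 1823 without control replicate 2, and TGFb+siHoxc8 against TGFb, with 3460 and 1934, had 2004 and 1148 without TGFb+siHoxc8 replicate 1 and 2120 and 1247 without replicate 2.

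Same-numbered libraries of TGFb+MetR and TGFb deviated with a correlation of 0.20, and those of the other 5 pairs of groups with -0.02 to 0.02. The labels tie the numbers to no shared culture, so they were not taken as pairs. With the replicate number as a block the counts were 0 raised and 12 lowered for TGFb against control, 23 and 3 for TGFb+MetR against TGFb, 17 and 1 for TGFb+siHoxc8 against TGFb, 18 and 12 for TGFb+MetR against control, and 6 and 12 for TGFb+siHoxc8 against TGFb+MetR. The block ended the calls of Prmt9 in TGFb against control (adjusted p = 0.0561) and of Mettl26 in TGFb+siHoxc8 against TGFb (0.0544) and TGFb+MetR (0.0655). It added Mettl9 in TGFb+MetR against TGFb (0.0438), Trmt6 (0.0307), Trmt112 (0.0373) and Ftsj3 (0.0421) in TGFb+siHoxc8 against TGFb, and Prmt3 (0.0476) and Mettl9 (0.0448) in TGFb+siHoxc8 against TGFb+MetR. Depth limits Nsun3, Mettl5 and Mettl4 most, with fewer than 20 reads in at least 1 library.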

Other observations

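Ratios between genes within a library do not depend on how libraries are scaled. They were looked at after the levels were seen, are given as values with no test, and carry no explanation. The FPKM ratio of Mettl3 to Mettl14, the subunits of the m6A writer, was 1.04 and 0.945 in TGFb+MetR libraries, 1.02 and 1.14 in TGFb+siHoxc8 libraries, 2.18 and 2.32 in TGFb libraries and 1.81 and 1.84 in control libraries. It was highest in TGFb libraries, and the TGFb+MetR and TGFb+siHoxc8 libraries overlapped below both others. The FPKM ratio of Mettl1 to its partner Wdr4 was 0.368 and 0.256 in TGFb+MetR libraries, 1.51 and 1.46 in TGFb+siHoxc8 libraries, 0.677 and 0.729 in TGFb libraries and 0.800 and 0.952 in control libraries. The groups did not overlap, and restriction and knockdown lay on opposite sides of TGFb and control. The FPKM ratio of Mettl16 to Mettl3 was 0.960 and 0.940 in TGFb+MetR libraries, 0.648 and 0.603 in TGFb+siHoxc8 libraries, 0.355 and 0.375 in TGFb libraries and 0.378 and 0.397 in control libraries. TGFb+MetR libraries were the highest in this ratio, TGFb+siHoxc8 libraries next, and TGFb and control libraries were close together.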
